A study of Mus musculus with 6 samples.

Results

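Sertoli cells are the somatic cells that line the seminiferous tubule and enclose the germ cells, and 10 genes that mark them were read in sorted mouse elongating spermatids as a check on Sertoli RNA in the sort. The genes were Inha, Inhbb, Amh, Fshr, Gata4, Sox9, Wt1, Rhox5, Clu and Cldn11. All probe sets annotated to exactly 1 of these symbols were taken, which gave 17 of the 45037 probe sets on the array that are not controls, and that rule uses no measured value. Clu had 4 probe sets, Sox9 3, Inhbb and Gata4 2 each, and the other genes 1 each. By the RefSeq annotation Inha and Inhbb lie on chromosome 1, Wt1 on 2, Cldn11 on 3, Amh on 10, Sox9 on 11, Clu and Gata4 on 14, Fshr on 17 and Rhox5 on X.

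The samples were GFP-positive elongating spermatids from testes of ICR mice, an outbred strain, with a wild-type genotype in every group. The testes received a lentiviral vector at 5 weeks of age and the cells were sorted from total germ cells 1 week later. The vectors carried GFP with a short hairpin RNA against Miwi (shMiwi, 2 arrays), with a short hairpin RNA against Caf1 (shCaf1, 2 arrays), or with no named hairpin (control pSilencer, 2 arrays). Miwi is the PIWI protein Piwil1 and Caf1 is taken to be the deadenylase Cnot7. The labels call the arrays of a group biological replicates but do not say how many animals each stands for, so p-values measure the spread between these samples, and 2 arrays per group limit the precision of every value.

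Sertoli cells support spermatogenesis under the control of follicle-stimulating hormone, which they sense through Fshr and answer through cyclic AMP. They secrete inhibin B, a dimer of the Inha and Inhbb chains that lowers the release of follicle-stimulating hormone from the pituitary, and in the immature testis they secrete anti-Müllerian hormone (Amh), which falls off at puberty. The transcription factors Sox9, Gata4 and Wt1 set up and maintain Sertoli identity, and Cldn11 seals the blood-testis barrier between neighbouring Sertoli cells. Gata4, Inha and Inhbb are also known from Leydig cells, and Clu from several other cell types. In sorted bulk samples, fewer cells of a type and less RNA per cell cannot be told apart.

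The members are given as deposited signal intensities, on a linear scale on which every array has the same trimmed mean. The control pair was unlike the shRNA arrays, and its replicates were unlike one another: the median replicate difference was 0.218 in shMiwi, 0.185 in shCaf1 and 1.28 in control on the log2 scale. The signal of the hybridization controls, RNAs added in a fixed amount, was 0.806 to 1.20 times the mean of the shRNA arrays on those 4 arrays, but 82.3 times on control replicate 1 and 16.2 times on control replicate 2. Values against control are therefore given on the deposited scale and on the scale of the hybridization controls. The labelled cell type was checked with 17 elongating spermatid genes, whose median percentile among all probe sets of an array was between 98.0 and 99.4 on the shRNA arrays and 98.8 on control replicate 2, but 41.0 on control replicate 1. Piwil1 read 9780 and 10392 in shMiwi, 21881 and 22442 in shCaf1, and 1445360 and 292542 in control. Cnot7 read 4365 and 5012 in shMiwi, 3633 and 4330 in shCaf1, and 2003570 and 188877 in control. Both genes were called lower than control on the deposited scale in either comparison (log2 differences between -7.27 and -4.87). Neither passed against control on the scale of the hybridization controls. There Piwil1 was at -0.62 in shMiwi and 0.12 in shCaf1 (limma adjusted p = 0.763 and 0.955). Cnot7 was at -1.65 in shMiwi and -2.28 in shCaf1 (limma adjusted p = 0.283 and 0.154). Piwil1 was lower in shMiwi than in shCaf1 (-1.14 on the log2 scale, SE 0.09, limma adjusted p = 0.00105), whereas Cnot7 did not pass in that comparison (0.24, adjusted p = 0.307). For shMiwi against shCaf1 on the scale of the hybridization controls both passed, Piwil1 at -0.74 (limma adjusted p = 0.00106) and Cnot7 at 0.63 (adjusted p = 0.0137). The median over all tested probe sets was 0.38 there.

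By the probe set with the highest mean, Clu, Inha, Inhbb, Cldn11, Wt1 and Rhox5 gave a signal well inside the upper part of the distribution on the shRNA arrays. Fshr, Sox9 and Gata4 lay nearer the middle by that probe set, at percentiles between 55.3 and 68.4. Inhbb 1426859_at lay between 64.1 and 67.5 and Sox9 1451538_at between 67.1 and 71.3. Sox9 1433889_at lay between 7.0 and 26.5 and Gata4 1418864_at between 21.3 and 40.6. Taking for each gene the probe set with the highest mean, 9 of the 10 genes lay above the median probe set on every array. The gene below it was Amh on the shRNA arrays, Cldn11 on control replicate 1 (15.1) and Wt1 on control replicate 2 (31.3). Taking the brightest probe set favours a place above the median, and the share of all genes there was not counted. The median percentile of the 10 genes was 82.9 and 84.0 in shMiwi, 81.2 and 79.9 in shCaf1, and 75.7 and 84.2 in control. The control arrays lay on either side of the shRNA arrays in this measure, and their individual genes differed widely, as the plot of the members by array shows.

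**Figure D1:**
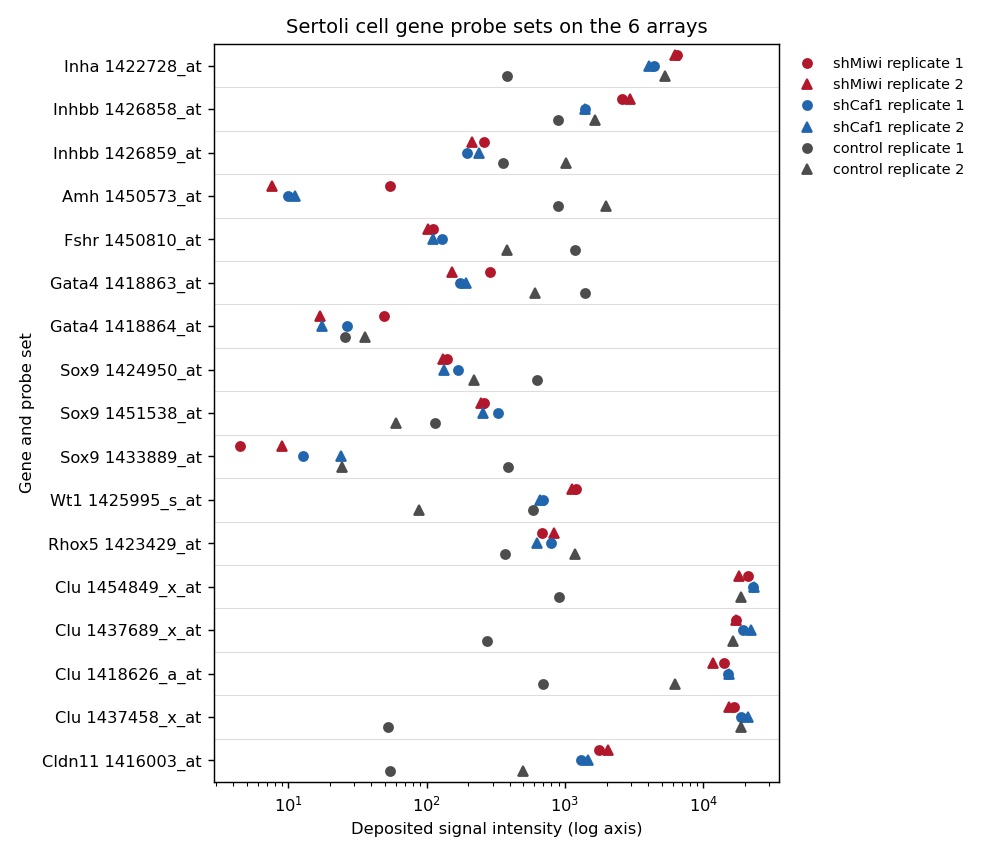
Deposited signal intensity on a log axis of the 17 probe sets of the 10 Sertoli cell genes, with a point for each of the 6 arrays (2 per group; circles are replicate 1, triangles replicate 2). The shMiwi and shCaf1 points lie close together, with Inha, Inhbb 1426858_at and Wt1 higher in shMiwi, whereas the control points are spread widely, for Clu 1454849_x_at at 905 and 18738.

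For shMiwi against shCaf1, the only comparison that does not use the control arrays, both inhibin B chains (Inhbb by 1 of its 2 probe sets) and Wt1 were higher in shMiwi. Inhbb differed by a log2 value of 0.98, Wt1 by 0.77 and Inha by 0.59, and no member was called lower. Clu, Cldn11 and the 5 genes Fshr, Gata4, Sox9, Rhox5 and Amh gave no call. In limma on the 4 shRNA arrays, 3 of 15 member probe sets tested were called higher and 0 lower (limma adjusted p under 0.05; 7 at an unadjusted p under 0.05), against 3.81% higher and 3.52% lower (7.33% in all) among the 27022 tested probe sets. The members' share called higher was above that background. The other 2 member probe sets were too dim for the filter and were not tested. The median log2 difference was 0.10 over the 15 member probe sets and 0.02 over all tested.

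Inha encodes the alpha chain that is specific to inhibins. Inha read 6515 and 6214 in shMiwi, 4396 and 4044 in shCaf1, and 381 and 5301 in control. Both shMiwi arrays were above both shCaf1 arrays, and the control arrays were on opposite sides of the shCaf1 arrays. The signal averaged 6364 ± 213 in shMiwi and 4220 ± 249 in shCaf1 (SD, n = 2 each), a log2 difference of 0.59 (SE 0.11, 95% interval 0.35 to 0.84, limma adjusted p = 0.0196).

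Inhbb encodes the beta B chain, which pairs with Inha in inhibin B and with itself in activin B. Its brighter probe set, 1426858_at, read 2601 and 2979 in shMiwi, 1402 and 1399 in shCaf1, and 893 and 1659 in control. The groups shMiwi and shCaf1 did not overlap, and the difference was 0.98 on the log2 scale (SE 0.13, 95% interval 0.70 to 1.27, limma adjusted p = 0.0063), 1.98-fold. The other Inhbb probe set, 1426859_at, did not show it: it read 260 and 212 in shMiwi, 198 and 238 in shCaf1, and 357 and 1022 in control, with a log2 difference between the shRNA groups of 0.11 (SE 0.21, 95% interval -0.36 to 0.57, adjusted p = 0.803).

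The DNA before the annotated start of Inhbb is shown because its brighter probe set had the largest called difference between the hairpins among the members. It is the 250 bases before the start (chr1:119422249-119422498, minus strand) in the RefSeq promoter table (GRCm38.p6), in lower case throughout since it holds none of the motifs searched.
Inhbb: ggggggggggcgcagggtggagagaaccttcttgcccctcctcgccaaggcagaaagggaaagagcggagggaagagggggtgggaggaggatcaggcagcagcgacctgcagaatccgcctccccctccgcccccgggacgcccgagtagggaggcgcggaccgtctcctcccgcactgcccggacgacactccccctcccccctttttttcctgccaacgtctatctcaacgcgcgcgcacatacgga

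Of the 10 genes, Inhbb, Fshr, Rhox5 and Cldn11 have a window in that table that ends at the outer end of the gene's annotated span. Inha also has a window, but it lies inside the Inha gene and was not used. The nuclear receptor Nr5a1 site core AGGTCA, searched on both strands, was in 0 of these 4 windows and in 14.5% of all 19827 windows chosen the same way. The core of a cyclic AMP response element, TGACG, was in 0 of the 4 windows and in 16.1% of all windows. A GATA factor site with the letters AGATAA was likewise in 0 of the 4 windows and in 11.3% of all windows. A SOX factor site with the letters AACAAT was in 1 of the 4 windows and in 10.8% of all windows. An androgen receptor half-site with the letters AGAACA was in 1 of the 4 windows and in 17.8% of all windows. The last 2 matches were in the Rhox5 window, where they overlap. The Inhbb window held none of these 5 strings, which says only that those letters are not there.

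Amh, the third ligand of the same family, was at the bottom of the signal range on the shRNA arrays. It read 54 and 7.6 in shMiwi, 10 and 11 in shCaf1, and 889 and 1984 in control. In percentiles of the array this was 42.7 and 11.9 in shMiwi, 14.2 and 16.3 in shCaf1, and 81.3 and 93.1 in control. The groups shMiwi and shCaf1 overlapped, and their log2 difference of 0.61 had a 95% interval of -0.77 to 1.99 (adjusted p = 0.593).

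Fshr, the receptor for follicle-stimulating hormone, had a low signal that was steady across the shRNA arrays. It read 111 and 102 in shMiwi, 129 and 111 in shCaf1, and 1183 and 381 in control. The 2 control arrays were above all 4 shRNA arrays on the deposited scale. Between the shRNA groups the log2 difference was -0.15 (SE 0.24, 95% interval -0.70 to 0.40, adjusted p = 0.763).

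Among the transcription factors, Wt1 differed between the hairpins. Wt1, a zinc finger factor needed for Sertoli identity, read 1206 and 1134 in shMiwi, 697 and 662 in shCaf1, and 593 and 88 in control. All 3 groups were separate, with shMiwi highest, shCaf1 next and control lowest on this scale. The shMiwi signal averaged 1170 ± 51 and the shCaf1 signal 680 ± 24 (SD, n = 2 each), a log2 difference of 0.77 (SE 0.14, 95% interval 0.46 to 1.08, limma adjusted p = 0.0183). The probe set, 1425995_s_at, carries the suffix that Affymetrix gives to sets whose probes can match several transcripts.

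Sox9, the factor that directs Sertoli differentiation, had 3 probe sets, and they ordered the groups differently. The set 1451538_at read 261 and 250 in shMiwi, 331 and 257 in shCaf1, and 116 and 61 in control, so control was lowest. The set 1424950_at read 141 and 132 in shMiwi, 170 and 134 in shCaf1, and 628 and 219 in control, so control was highest. The third set, 1433889_at, was below the filter and read 4.5 and 9.0 in shMiwi, 13 and 24 in shCaf1, and 388 and 25 in control. Between the hairpins the 2 tested sets differed by -0.18 and -0.13 on the log2 scale (95% intervals -0.63 to 0.26 and -0.66 to 0.39), and neither passed (adjusted p = 0.622 and 0.774).

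Gata4, a zinc finger factor that activates Sertoli genes such as Amh and Inha, read 286 and 152 in shMiwi, 176 and 193 in shCaf1, and 1388 and 605 in control on probe set 1418863_at. The shMiwi arrays enclosed the shCaf1 arrays, and the difference of 0.17 did not pass (95% interval -0.47 to 0.81, adjusted p = 0.763). Its other probe set, 1418864_at, was below the filter, with 49 and 17 in shMiwi, 27 and 18 in shCaf1, and 26 and 36 in control. Rhox5, an androgen-responsive homeobox gene on the X chromosome, read 685 and 835 in shMiwi, 790 and 628 in shCaf1, and 367 and 1181 in control. The 2 shRNA groups overlapped and lay between the control arrays, with a log2 difference between hairpins of 0.10 (95% interval -0.29 to 0.49, adjusted p = 0.772).

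Clu encodes clusterin, a secreted chaperone and a major product of Sertoli cells, and it was among the brightest probe sets of the shRNA arrays. The set with the highest mean, 1454849_x_at, read 20939 and 18287 in shMiwi, 22863 and 23196 in shCaf1, and 905 and 18738 in control. On the shRNA arrays it lay at a percentile between 99.89 and 99.94 of the array, on control replicate 2 at 99.0 and on control replicate 1 at 81.9. All 4 Clu probe sets were lower in shMiwi than in shCaf1 without overlap, with log2 differences between -0.30 and -0.23. None of the 4 passed (adjusted p between 0.106 and 0.215), and 3 of them are of the type that Affymetrix marks as open to cross-hybridization. The 4 sets measure the same transcript and are not independent.

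Cldn11, the tight junction claudin of Sertoli cells, read 1752 and 2037 in shMiwi, 1317 and 1467 in shCaf1, and 55 and 500 in control. The 3 groups did not overlap on the deposited scale. The log2 difference between the hairpins was 0.44 (SE 0.14, 95% interval 0.13 to 0.75) and did not pass over all probe sets (adjusted p = 0.0897). On the scale of the hybridization controls it was 0.83 and passed (adjusted p = 0.00341), but there the median over all tested probe sets was 0.38, against 0.02 on the deposited scale. The hybridization control scale called 4 member probe sets higher and 0 lower, beside 25.5% and 0.955% of all tested.

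**Figure D2:**
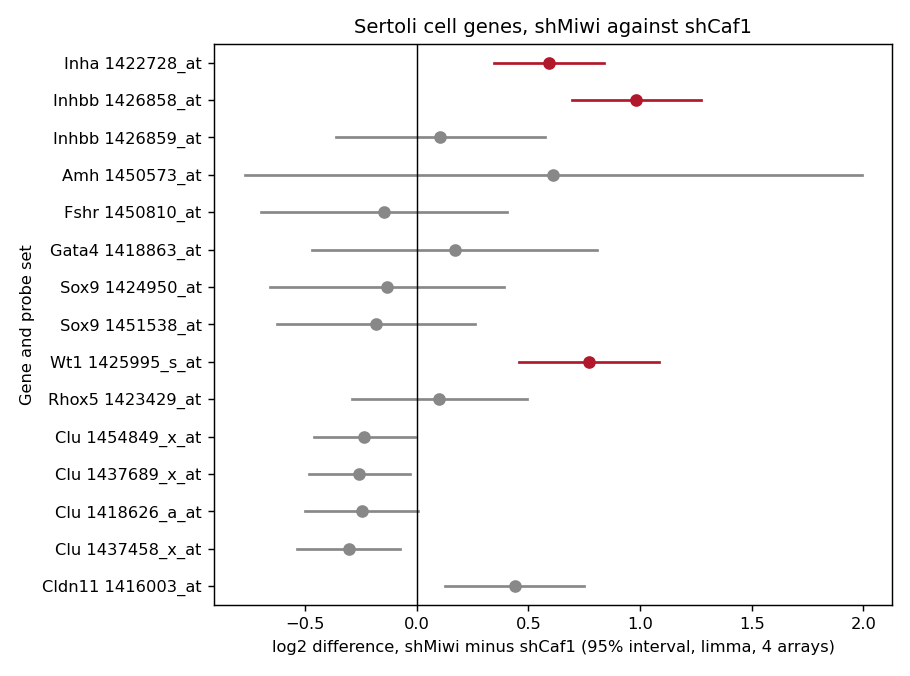
The log2 difference of shMiwi minus shCaf1 on the x axis, with 95% intervals before adjustment, for the 15 tested Sertoli cell probe sets (limma, 2 arrays per group; red marks an adjusted p under 0.05). Inha at 0.59, Inhbb 1426858_at at 0.98 and Wt1 at 0.77 lie above 0, and the 4 Clu probe sets lie between -0.30 and -0.23.

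Counting arrays that do not overlap, 4 member probe sets were higher in shMiwi than in shCaf1 (Inha, Inhbb 1426858_at, Wt1 and Cldn11) and 5 were lower (the 4 of Clu and Fshr). Of all tested probe sets, 28.8% were higher and 25.3% lower by this measure, so the members' shares are near the background. With 2 arrays per group an exact permutation test of a single probe set cannot go below p = 0.333, and the calls rest on the spread that limma borrows across probe sets. Without that dependence of spread on intensity, 0 member probe sets were called (4 at an unadjusted p under 0.05), beside 0.0555% of all tested, and the adjusted p was 0.143 for Inhbb, 0.144 for Wt1 and 0.163 for Inha; with the control arrays in the same fit 0 members (0 at an unadjusted p under 0.05) and 0% of all tested were called. Without shCaf1 replicate 2 the calls of Inha (adjusted p = 0.133) and Wt1 (0.131) were lost, with 1.02% of all tested still called, and without shCaf1 replicate 1 that of Wt1 (0.063).

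The summed signal of the 10 genes overlapped between the hairpins, and Clu made up most of it on 5 of the 6 arrays. With 1 probe set per gene the sum was 34288 and 31879 in shMiwi, 31949 and 31845 in shCaf1, and 7283 and 30655 in control. Clu made up between 57.4% and 72.8% of the sum on the shRNA arrays, 12.4% on control replicate 1 and 61.1% on control replicate 2; these are shares of array signal, not of transcripts. Without Clu the sum was 13350 and 13592 in shMiwi, 9087 and 8649 in shCaf1, and 6378 and 11917 in control. The shMiwi arrays were then above the other 4 arrays, and the shCaf1 arrays lay between the control arrays; leaving Clu out was chosen after the values had been seen.

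Against the control vector, the calls of the Sertoli genes depended on the scale, and 4 of the 15 tested probe sets changed direction with it. On the deposited scale, Amh, Fshr and Gata4 were called lower in shMiwi, and Cldn11 and Sox9 1451538_at higher. In shCaf1 the same probe sets were called except Cldn11, which at 2.88 did not pass (adjusted p = 0.0603). On the scale of the hybridization controls 14 of 15 member probe sets were called higher in either comparison, and Amh was the exception. The 2 comparisons share the control arrays and are not independent of each other.

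For shMiwi minus control, limma on all 6 arrays called 2 of 15 member probe sets higher and 3 lower, against 16.9% higher and 26.4% lower (43.2% in all) among all tested probe sets, so neither share was above the background. Cldn11 was higher by 3.32 (SE 0.94, adjusted p = 0.0393, n = 2 per group) and Sox9 1451538_at by 1.43 (SE 0.42, adjusted p = 0.0419). Called lower were Fshr at -2.49 (SE 0.59, adjusted p = 0.0228) and Gata4 1418863_at at -2.05 (SE 0.54, adjusted p = 0.0321). Amh counts among the 3 lower, but it entered the test only through its control signal, since all 4 shRNA arrays lie below the filter's signal of 77.7, so its difference is a description: -5.05 as fitted, -5.93 with 1 in place of 16 added before log2, and -3.93 with 64. By arrays that do not overlap, 7 member probe sets were higher and 5 lower, beside 30.6% and 40.3% of all tested. Inha at 2.13, Wt1 at 2.24 and the 4 Clu probe sets between 2.24 and 3.82 did not pass (adjusted p between 0.0865 and 0.273), with control arrays that differed from each other by many times.

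For shCaf1 minus control, 1 of 15 member probe sets was called higher and 3 lower, against 15.5% higher and 26% lower (41.5% in all) among all tested probe sets, again with neither share above the background. Fshr differed by -2.35 (SE 0.59, adjusted p = 0.0284), Gata4 1418863_at by -2.22 (SE 0.54, adjusted p = 0.0266) and Sox9 1451538_at by 1.62 (SE 0.42, adjusted p = 0.0308). The third of the 3 lower is Amh, again through its control signal, with a difference of -5.66, which the added constant sets in part (-6.84 with 1 and -4.23 with 64). Inha at 1.54, Wt1 at 1.47 and Rhox5 at 0.09 did not pass (adjusted p between 0.22 and 0.917). With a weight for each group, which lets the control arrays vary more, 1 member probe set was called in shMiwi and 0 in shCaf1 (limma; 7 of 15 at an unadjusted p under 0.05 in shCaf1), beside 11.8% and 9.88% of all tested. By arrays that do not overlap, 6 were higher and 5 lower, beside 30% and 40.9% of all tested. Single arrays decided these counts, for the members as for all probe sets: without control replicate 1 there were 10 calls in shMiwi (5 higher, 5 lower) and 11 in shCaf1 (5 higher, 6 lower), beside 79.7% and 78.5% of all tested, and without control replicate 2 there were 14 in shMiwi (10 higher, 4 lower) and 14 in shCaf1 (9 higher, 5 lower), beside 84% and 83.9%. With either shMiwi array left out, 0 were called in shMiwi (3 and 2 at an unadjusted p under 0.05), and with either shCaf1 array left out, 0 in shCaf1 (2 and 3); 0% of all tested were called in these refits, so they do not bear on the members. The arrays of the other hairpin do not enter a difference from control. Leaving out either of them therefore could not change the median member difference, 1.43 in shMiwi and 1.47 in shCaf1. Fewer member probe sets, and fewer of all tested, were called in those refits.

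On the scale of the hybridization controls the members' control signals were small. Clu 1454849_x_at stood at 22248 and 22687 in shMiwi, 20820 and 19323 in shCaf1, and 11 and 1154 in control. Inha stood at 6922 and 7709 in shMiwi, 4003 and 3369 in shCaf1, and 4.6 and 327 in control. Fshr stood at 117 and 127 in shMiwi, 117 and 92 in shCaf1, and 14 and 23 in control, so its order was the opposite of that on the deposited scale. Amh stood at 57 and 9.4 in shMiwi, 9.1 and 9.3 in shCaf1, and 11 and 122 in control, and its differences of -0.49 and -1.27 kept their sign without passing (adjusted p = 0.564 and 0.165). On this scale 14 of 15 member probe sets were called higher in each comparison and 0 lower, beside 90.4% higher and 0.0962% lower of all tested in shMiwi and 87.6% higher and 0.037% lower in shCaf1. The median difference was 5.83 over the members and 3.58 over all probe sets in shMiwi, and 4.46 and 3.15 in shCaf1.

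**Figure D3:**
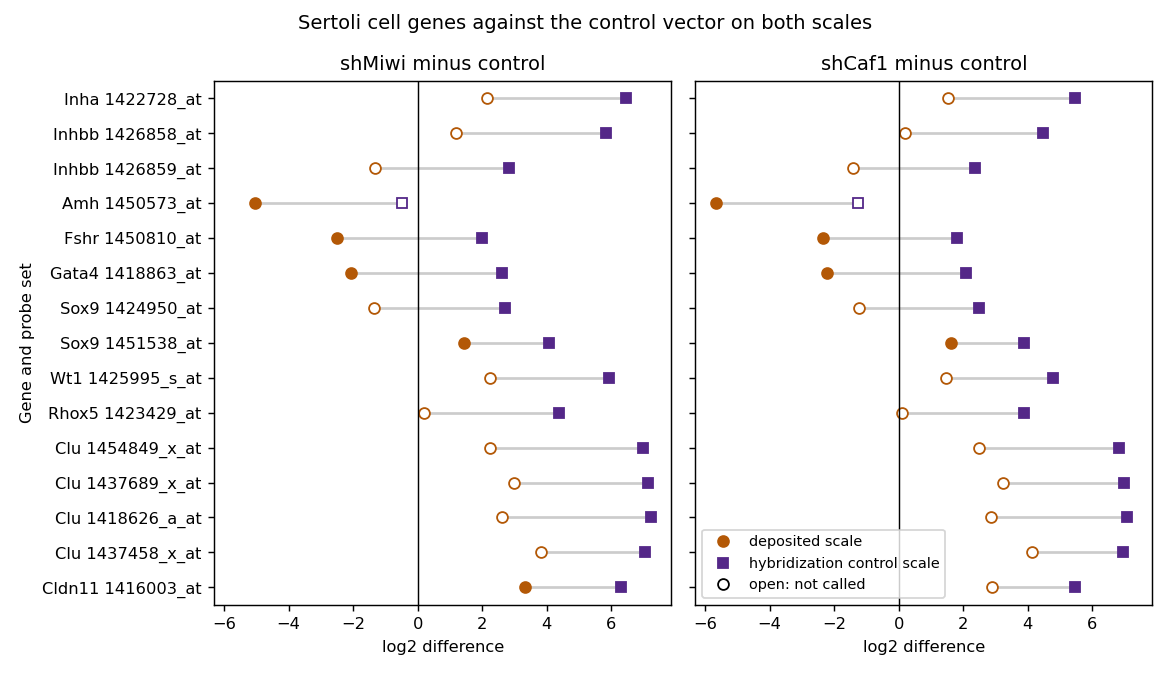
The log2 difference from control on the x axis for the 15 tested Sertoli cell probe sets, in shMiwi (left panel) and shCaf1 (right panel), on the deposited scale (circles) and on the scale of the hybridization controls (squares); filled symbols passed an adjusted p under 0.05. Fshr, Gata4 1418863_at, Inhbb 1426859_at and Sox9 1424950_at lie on opposite sides of 0 on the 2 scales, and Amh lies below 0 on either.

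Among 28 other tested Sertoli genes, with 1 probe set per gene, 4 rose and 2 fell in shMiwi against shCaf1, compared with 4.27% and 4.85% of all genes. Kitl, the ligand of the germ cell receptor Kit, read 1128 and 1166 in shMiwi against 574 and 564 in shCaf1 (0.99, SE 0.14, adjusted p = 0.00826). Tsx, a testis-specific X-linked gene, read 1154 and 1212 in shMiwi against 770 and 595 in shCaf1 (0.79, SE 0.16, adjusted p = 0.0274). Ptgds, a prostaglandin D synthase also made by Leydig cells, read 2873 and 3149 in shMiwi against 15416 and 17649 in shCaf1 (-2.45, SE 0.11, adjusted p = 4.88e-05). The steroid dehydrogenase Hsd17b1 was the other fall counted (-1.48), with 17 and 34 in shMiwi against 124 and 76 in shCaf1. It entered the test only through its control signal of 678 and 384, so this fall is a description. The median over the 28 genes was 0.07. On the hybridization control scale 13 rose and 2 fell, beside 26.4% and 1.13% of all genes on that scale, with Ptgds at -2.05 and Hsd17b1 at -1.19.

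Against control, 10 of these 28 genes rose and 4 fell in shMiwi, and 8 rose and 4 fell in shCaf1, compared with 18.6% and 22.7% of all genes in shMiwi and 17.2% and 22.4% in shCaf1. The falls include Hsd17b1 in shMiwi, with 17 and 34 there and 678 and 384 in control. They also include Krt18 in shCaf1, with 64 and 37 there and 353 and 407 in control. These shRNA signals lie below the filter's signal of 77.7, so both falls are a description. Dmrt1, which spermatogonia also express, rose by 4.37 and Nr0b1, a nuclear receptor, by 4.37 in shMiwi, and the cystatin Cst9 rose by 4.37 and Aard by 4.07 in shCaf1. In control Nr0b1 read 72 and 77 and Dmrt1 81 and 34, near or below the filter's signal. The rises of these 2 genes are therefore a description. Vim, the intermediate filament vimentin of Sertoli and other somatic cells, read 2724 and 3594 in shMiwi, 2803 and 3560 in shCaf1, and 166270 and 142157 in control. It was the largest fall of the list on the deposited scale (-5.61 and -5.60) and did not pass on the hybridization control scale (-0.23 and -0.61, adjusted p = 0.856 and 0.630).

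The pathway of the 3 ligands was read in 22 tested genes for inhibin, activin and Amh signalling. In shMiwi against shCaf1, 4 rose and 0 fell, beside 4.27% and 4.85% of all genes, with a median of 0.23 against 0.02 over all probe sets. Acvr1, a type I receptor of the family, read 795 and 829 in shMiwi against 335 and 246 in shCaf1 (1.45, SE 0.18, adjusted p = 0.00588), and Smad2, an intracellular mediator of activin, read 698 and 765 in shMiwi against 392 and 369 in shCaf1 (0.91, SE 0.16, adjusted p = 0.015). Against control 5 rose and 5 fell in shMiwi and 5 rose and 6 fell in shCaf1, beside 18.6% and 22.7% of all genes in shMiwi and 17.2% and 22.4% in shCaf1. Acvr1 was at 4.55 and 3.10. It read 41 and 5.9 in control, below the filter's signal of 77.7, and entered the test only through the shRNA arrays. Acvr1c, among the falls, entered only through control. It read 43 and 45 in shMiwi, 60 and 46 in shCaf1, and 1077 and 252 in control. The differences of both genes are therefore a description. The inhibitory Smad7 was the largest fall on the deposited scale in either comparison (-3.48 and -3.10), and turned to 1.41 and 1.43 on the hybridization control scale.

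Of 23 tested cyclic AMP pathway genes, not all of them tied to Fshr, 3 rose and 1 fell in shMiwi against shCaf1, beside the same 4.27% and 4.85% of all genes. The adenylyl cyclases Adcy7 (0.90, adjusted p = 0.0224) and Adcy9 (0.67, adjusted p = 0.0467) were the largest rises, and Adcy10, the soluble cyclase of sperm, was the fall (-0.77, adjusted p = 0.00951). Among 18 tested junction genes of the blood-testis barrier, 2 rose and 0 fell: the tight junction genes Ocln (0.77, adjusted p = 0.0267) and Tjp1 (0.67, adjusted p = 0.0185). Ocln read 724 and 748 in shMiwi against 455 and 397 in shCaf1, and Tjp1 read 2974 and 3340 in shMiwi against 1942 and 2001 in shCaf1. Against control, 5 cyclic AMP genes rose and 5 fell in shMiwi and 4 rose and 5 fell in shCaf1, shares close to the 18.6% and 22.7% of all genes in shMiwi and 17.2% and 22.4% in shCaf1, with Crem, a germ cell transcription factor, at 4.74 and 4.82. Of the junction genes 6 rose and 3 fell in either comparison, led by Nectin3 at 4.74 and 4.97, and Gja1, a gap junction connexin, fell by 3.66 in shMiwi and fell by 3.85 in shCaf1. On the hybridization control scale no gene of these 4 lists fell against control, where 0.0909% of all genes fell in shMiwi and 0.021% in shCaf1, and Gja1 was at 1.71 and 1.12 without passing (adjusted p = 0.195 and 0.385).

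Markers of other cells moved in the same comparison as Inha, Inhbb and Wt1. Of 17 elongating spermatid genes, 0 rose and 14 fell in shMiwi against shCaf1, beside 4.27% and 4.85% of all genes, with a median of -0.72, and their summed signal was 170390 and 160917 in shMiwi, 248416 and 266206 in shCaf1, and 7596 and 761405 in control. On the hybridization control scale 0 of the 17 rose and 5 fell, beside 26.4% and 1.13% of all genes. The median there was -0.32, against 0.38 over all tested probe sets. Of the 9 round spermatid genes 2 fell, of 12 pachytene spermatocyte genes 1 fell, and of 10 spermatogonial genes none passed the adjusted threshold. The part of these markers in the Sertoli differences was not tested.

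Among other somatic cells, 1 of 6 Leydig genes rose and 0 fell in shMiwi against shCaf1. On the deposited scale 4.27% of all genes rose and 4.85% fell, beside this list and those that follow. The Leydig sum was 25387 and 24396 in shMiwi, 21094 and 21309 in shCaf1, and 5270 and 6527 in control. Of 8 peritubular myoid genes 3 rose and 1 fell, with sums of 9940 and 9312 in shMiwi, 9068 and 8799 in shCaf1, and 5044 and 11730 in control. Of 9 macrophage genes 0 rose and 1 fell, and of 5 endothelial genes none passed the adjusted threshold. The Leydig genes had a median percentile between 88.0 and 89.1 on the shRNA arrays, the macrophage genes between 75.9 and 79.2, and the endothelial genes between 46.3 and 55.1. No probe set read 0 on any array. On the hybridization control scale 2 Leydig, 5 myoid and 2 macrophage genes rose and 0 fell, beside 26.4% and 1.13% of all genes. Whether the Leydig and myoid signals bear on Inha, Inhbb and Gata4, which Leydig cells can express, was not tested.

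**Figure D4:**
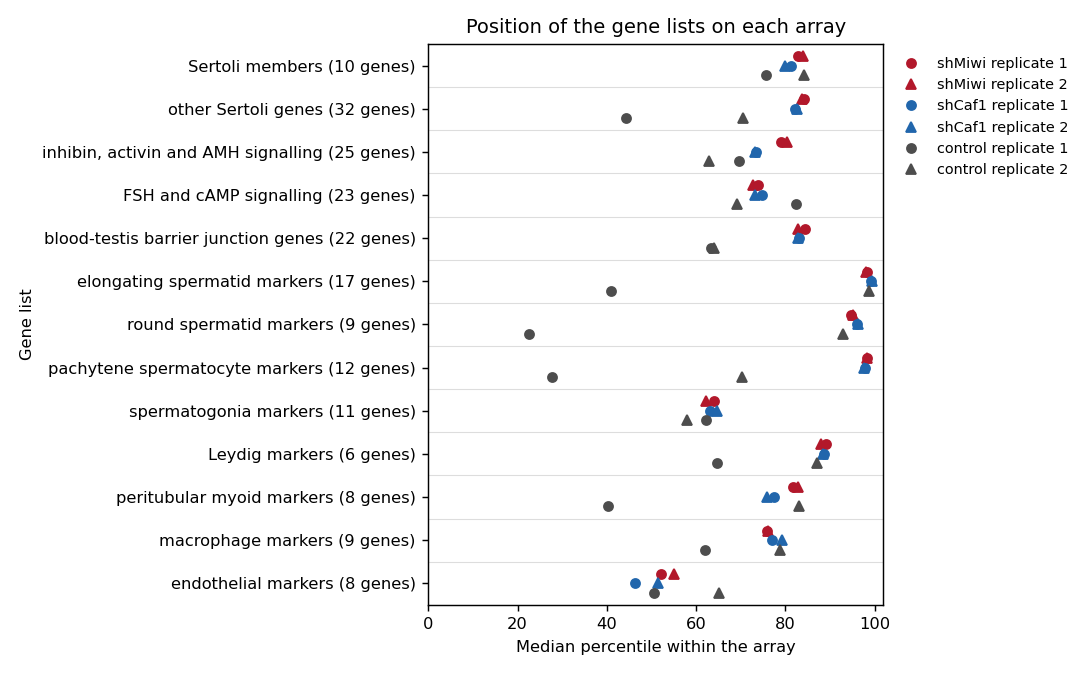
Median percentile of each gene list among all probe sets of an array, on the x axis, with a point per array (colour for group, shape for replicate) and 1 probe set per gene. The Sertoli members lie between 79.9 and 84.0 on the shRNA arrays, and the elongating spermatid markers lie at 41.0 on control replicate 1 but at 98.0 or above on the other 5 arrays.

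The genes whose profile over the 6 arrays was most like the mean profile of the 10 Sertoli genes were Ctdsp2 (Pearson's r 0.996), Ppfibp2 (0.986), Pcx (0.983), Igf2r (0.982) and Cyp26a1 (0.975). The mean profile was highest on control replicate 2 and lowest on control replicate 1, and the shMiwi arrays were above the shCaf1 arrays in it. Igf2r read 388 and 341 in shMiwi, 249 and 195 in shCaf1, and 202 and 627 in control. These values describe 6 arrays of which 2 stand apart, and carry no p-value.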

How the data were processed

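Total RNA was hybridized to 6 arrays, and the authors' deposited values are linear signal intensities of 45101 probe sets. The submitters' processing notes name MAS5 without a version; the genome build is not given in the sources used here. In the deposited values the 2% trimmed mean is the same on all arrays. Genes were named from the platform annotation where a probe set has 1 symbol (34945 probe sets; 932 have several, 9160 none), and 99.4% matched the RefSeq table (GRCm38.p6), which changed 0 symbols.

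The 64 control probe sets were removed, 16 was added before log2, and testing was limited to probe sets whose mean log2 exceeded the 40th percentile (27022, among them 15 of the 17 members). Differences are on the log2(signal + 16) scale, which understates changes of dim probe sets. Limma 3.58.1 in R 4.3.3 (lmFit, eBayes with intensity trend, Benjamini-Hochberg adjustment over all tested probe sets) was fitted to all 6 arrays for comparisons with control and to the 4 shRNA arrays for shMiwi minus shCaf1. The fit was tested on simulated data. The hybridization scale divides the signal of each array by its geometric mean over 18 added control probe sets, relative to that of the shRNA arrays. Groups and replicate numbers come from the sample titles. The named genes are all members, both hairpin targets, the 2 largest called rises and falls per companion list and comparison, and the 5 most similar profiles; companion genes of the comparisons with control are named in part. Members, lists, tests and alternatives were chosen with earlier results of these data known, and the promoters and motifs after the values were seen. Other constants, filters, scalings, spread models, a replicate block and leaving out each array were tried.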

Additional observations from a re-analysis of the deposited data

How the results depend on the processing

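The call counts against control depended most on scaling and on single arrays. Of the 15 member probe sets, 5 were called in shMiwi and 4 in shCaf1, beside 43.2% and 41.5% of all tested. On the hybridization control scale 14 and 14 were called, beside 90.5% and 87.6%. Quantile normalization over all 6 arrays gave 3 and 2, beside 34.1% and 32.2%. Group weights gave 1 and 0, beside 11.8% and 9.88%. The 2 groups alone gave 1 and 1, beside 24.5% and 22%. Without control replicate 1 the median member difference was 0.06 in shMiwi and -0.24 in shCaf1. Without control replicate 2 it was 1.04 and 0.91. The split of 2 higher and 3 lower in shMiwi became 5 and 1 with median centring, 2 and 1 with quantile normalization, and 14 and 0 on the hybridization control scale. In shCaf1, 1 and 3 became 4 and 1, 1 and 1, and 14 and 0. Over all tested, median centring called 36.4% higher and 10.5% lower in shMiwi, and 34.5% and 9.55% in shCaf1. Quantile normalization called 20% and 14.1% in shMiwi, and 19% and 13.2% in shCaf1. For shMiwi minus shCaf1 the 3 calls became 0 without the intensity trend, 0 with all 6 arrays (limma; 0 at an unadjusted p under 0.05, so control spread enters) and 7 with the replicate block (4 higher, with Cldn11 at adjusted p = 0.0127, and 3 lower, the Clu probe sets 1437458_x_at, 1437689_x_at and 1454849_x_at at 0.0154, 0.0281 and 0.0446; 5458 over all probe sets), and 1 to 4 on leaving out an array (1 without shCaf1 replicate 2). The replicate numbers share no stated origin, and deviations of same-numbered arrays correlated at 0.18, 0.004 and 0.061, so the block was not used. Over all probe sets the calls ranged from 0 to 24458 for shMiwi minus control (11687 as reported), 0 to 23679 for shCaf1 minus control (11205), and 0 to 7145 for shMiwi minus shCaf1 (1981). The block gave 4 calls in shMiwi and 4 in shCaf1 against control, beside 38.5% and 36.5% of all tested.

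Directions turned in 35 of 732 refits of member probe sets; the cause was not tested. On the hybridization control scale Gata4 1418863_at turned to 2.61 and 2.08 in shMiwi and shCaf1 against control, Sox9 1424950_at to 2.71 and 2.48, Inhbb 1426859_at to 2.83 and 2.36, and Fshr to 1.996 and 1.80. With median centring Sox9 1424950_at turned to 0.23 and 0.35 and Inhbb 1426859_at to 0.27 and 0.15, and with quantile normalization Sox9 1424950_at in shCaf1 to 0.0016. Leaving out an array gave a range of -0.63 to 1.01 for Rhox5 and -0.23 to 7.87 for Clu 1437458_x_at in shMiwi, and of -0.73 to 0.91 for Rhox5 (-0.074 without shCaf1 replicate 1), -0.33 to 3.41 for Inha and -0.24 to 0.64 for Inhbb 1426858_at in shCaf1, with the low end without control replicate 1 and the high end without control replicate 2. For shMiwi minus shCaf1 the hybridization control scale turned the Clu probe sets to 0.15, 0.094, 0.14 and 0.16, Sox9 to 0.22 and 0.19 and Fshr to 0.20, and quantile normalization turned Clu 1437689_x_at to 0.17 and 1454849_x_at to 0.18. Leaving out an array gave a range of -0.25 to 0.59 for Gata4, -0.17 to 1.40 for Amh, -0.031 to 0.24 for Inhbb 1426859_at (-0.020 without shCaf1 replicate 1), -0.061 to 0.26 for Rhox5 (-0.038 without shMiwi replicate 2) and -0.29 to 0.024 for Sox9 1424950_at. Inha, Wt1 and Inhbb 1426858_at stayed higher in shMiwi than in shCaf1 in all 15 refits, and passed in 11, 11 and 13. The shMiwi and shCaf1 arrays of Inha, Wt1 and Inhbb 1426858_at do not overlap, so only a change of scaling could have turned their direction. The summed member signal, 33083 in shMiwi, 31897 in shCaf1 and 18969 in control on average, was 79818, 88219 and 41342 over all member probe sets, 37991, 27811 and 989 on the hybridization control scale, and 13471, 8868 and 9147 without Clu.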
